A study of Mus musculus with 6 samples.

Results

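The aryl hydrocarbon receptor (AHR) pathway was followed in cultured fetal mouse ovaries through 6 genes, of the 21898 genes in the deposited count table. The members were found by symbol: Ahr and Arnt, which encode the receptor and its DNA-binding partner, Ahrr and Tiparp, which encode repressors of the receptor, and Cyp1a1 and Cyp1b1, which encode enzymes that the receptor induces. The set was chosen by the read counts of this same comparison, because Cyp1a1 was higher in ovaries cultured with NAPQI (N-acetyl-p-benzoquinone imine), a reactive quinone imine formed from acetaminophen. The comparison of NAPQI with control libraries is therefore a description for these 6 genes and carries no test.

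The AHR is a transcription factor of the bHLH-PAS family that waits in the cytosol in a complex with HSP90 and p23. A planar aromatic ligand sends it to the nucleus, where it pairs with ARNT and binds DNA at a core of the letters GCGTG. Genes of the cytochrome P450 family CYP1 are its classic targets, and the AHR repressor and TIPARP, which are also induced, limit the response. In the mouse ovary the receptor is known for its part in the loss of germ cells after exposure to polycyclic aromatic hydrocarbons.

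All ovaries were wild type, were removed 14.5 days post coitum and spent 3 days in culture in DMEM/F12 without serum. The treated group received 15 µM NAPQI and the control group an equal volume of ethyl acetate, the solvent, with 3 libraries of total RNA in each. The sources used here do not give the strain, or whether libraries were from separate litters, separate cultures or pooled animals. The p-values therefore rest on the variation among these 6 libraries, and that may be technical.

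Summed counts were 14288452 to 16050342 in NAPQI libraries and 13879347 to 17258609 in control libraries. Control replicate 3 was the shallowest library and stood farthest from the others on the first principal component, at 35.68 against -26.35 to 14.93. Defining markers of the ovary were present in every library: Ddx4 of germ cells at 151 to 194 counts per 1e+06 counted reads (CPM) and Foxl2 of pregranulosa cells at 297 to 405 CPM. Summed levels of the 9 marker lists for germ cells, pregranulosa, interstitial, endothelial, mural, macrophage, erythroid, surface epithelial and mesonephric cells overlapped between the groups in 9 of 9 lists. For single genes, all NAPQI libraries lay above all controls in 7.26% of the 14736 tested genes and below them in 7.13%. Overlap is thus the usual outcome and does not show equal cell composition. The interstitial list overlapped through NAPQI replicate 1 alone. Its 6 genes all had a negative log2 fold change, as did 7745 of the 14736 tested genes. An unadjusted edgeR p under 0.05 was held by 3 of the 6, and by 9.24% of all tested genes in either direction. After adjustment 0 of the 6 were called. In the macrophage list 5 of 6 genes were negative, and in the germ cell list 1 of 5 tested genes. The erythroid list had 4 of 4 tested genes negative, the surface epithelial list 4 of 5 and the mesonephric list 3 of 4. The endothelial list had 4 of 6, the pregranulosa list 3 of 6 and the mural list 2 of 5. The erythroid list differed most between libraries, with 18.2 to 62.9 CPM in NAPQI libraries and 26.9 to 197 CPM in controls, the highest being control replicate 3; its member Hba-a2 was at 0 in every library. These are whole ovaries, so fewer cells of a type and less RNA per cell cannot be told apart.

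RefSeq promoter sequences (250 bases before to 50 after the start site, build GRCm38.p6) were found for 5 of the 6 members, all but Ahr. They are shown for the 4 genes that are targets of the receptor, since the AHR core GCGTG is the letters through which it acts. Capitals mark each match to GCGTG, which reads CACGC where it lies on the other strand.
Cyp1a1: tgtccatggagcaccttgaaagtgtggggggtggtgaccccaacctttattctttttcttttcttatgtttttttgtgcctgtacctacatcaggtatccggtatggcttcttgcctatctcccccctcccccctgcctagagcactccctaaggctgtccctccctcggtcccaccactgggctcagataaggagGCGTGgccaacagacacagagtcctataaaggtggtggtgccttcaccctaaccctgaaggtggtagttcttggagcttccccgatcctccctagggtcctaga
Cyp1b1: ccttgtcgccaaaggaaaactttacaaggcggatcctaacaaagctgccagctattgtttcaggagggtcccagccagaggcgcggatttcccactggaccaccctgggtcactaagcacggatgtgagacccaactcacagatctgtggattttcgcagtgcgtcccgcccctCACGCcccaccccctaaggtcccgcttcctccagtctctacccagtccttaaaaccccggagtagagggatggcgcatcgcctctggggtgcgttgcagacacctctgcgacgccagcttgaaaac
Ahrr: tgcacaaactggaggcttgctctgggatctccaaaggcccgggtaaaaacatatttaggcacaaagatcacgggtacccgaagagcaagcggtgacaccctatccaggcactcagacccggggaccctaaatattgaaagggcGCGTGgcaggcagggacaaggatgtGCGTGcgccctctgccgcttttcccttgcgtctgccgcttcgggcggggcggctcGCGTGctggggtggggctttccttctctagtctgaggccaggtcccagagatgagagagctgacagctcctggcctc
Tiparp: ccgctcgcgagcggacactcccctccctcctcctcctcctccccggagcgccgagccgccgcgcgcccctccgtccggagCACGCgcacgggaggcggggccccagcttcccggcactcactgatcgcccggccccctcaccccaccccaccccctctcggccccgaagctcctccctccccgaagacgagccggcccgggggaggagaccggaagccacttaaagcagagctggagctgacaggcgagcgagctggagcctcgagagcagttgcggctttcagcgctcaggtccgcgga
The Cyp1a1 window is chr9:57697363-57697662 on the plus strand, the Cyp1b1 window chr17:79715012-79715311 on the minus strand, the Ahrr window chr13:74292282-74292581 on the minus strand and the Tiparp window chr3:65528197-65528496 on the plus strand. Cyp1a1 held 1 match, starting 54 bases before the start site, and Cyp1b1 held 1, at 76 bases before it. Tiparp held 1 at 170 bases before the start site, and Arnt, not shown, held 1 at 29 bases before it. Ahrr held 3, at 107, 82 and 27 bases before the start site. The last of these was part of the longer element TNGCGTG, of which it was the only match among the 5 members. Searched on both strands, GCGTG occurred in 32.4% of 32851 promoter windows of 300 bases and TNGCGTG in 5.07%; 3.91% of windows held GCGTG 3 times or more. TNGCGTG contains GCGTG, and GCGTG is also one form of the core bound by hypoxia-inducible factors. A match is a description of these letters and not a site of binding, and distal elements lie outside these windows.

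The receptor gene had close group means and uneven controls. Ahr (ENSMUSG00000019256, chromosome 12, 35547973 to 35585037, minus strand, in GRCm39 coordinates of the deposited table as for all genes below) had 23.2, 24.5 and 25.2 CPM in NAPQI replicates 1, 2 and 3, and 18.2, 30.9 and 19.8 CPM in control replicates 1, 2 and 3. The NAPQI libraries lay close together and inside the range of the controls, in which replicate 2 stood above the other two. The coefficient of variation was 4.17% in NAPQI libraries and 30.0% in controls. The log2 fold change of NAPQI over control was 0.08 ± 0.18 (SE). It was 0.36 without control replicate 2, -0.06 without control replicate 1 and -0.01 without control replicate 3, so its sign rested on single controls. Summed surface epithelium markers were 190, 111 and 241 CPM in NAPQI replicates 1, 2 and 3 and 74.4, 343 and 131 CPM in control replicates 1, 2 and 3. Control replicate 2 was thus highest for both, and the part of the surface epithelium in the level of Ahr was not tested.

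Arnt, the partner that the AHR shares with the hypoxia-inducible factors, was more even. Arnt (ENSMUSG00000015522, chromosome 3, 95341699 to 95404551, plus strand) had 96.1, 92.1 and 91.1 CPM in NAPQI libraries and 95.7, 78.8 and 82.5 CPM in controls. Its groups overlapped through control replicate 1, and the log2 fold change was 0.12 ± 0.10 (SE).

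The repressor genes had log2 fold changes of opposite sign. Ahrr encodes a receptor-like protein that competes for ARNT and lacks a ligand-activated function. Ahrr (ENSMUSG00000021575, chromosome 13, 74359237 to 74440450, minus strand) had 8.57, 7.34 and 10.01 CPM in NAPQI libraries and 7.66, 7.63 and 6.58 CPM in controls. NAPQI replicates 1 and 3 lay above all 3 controls and NAPQI replicate 2 lay between them. The log2 fold change was 0.24 ± 0.20 (SE) on 116 to 145 counts in NAPQI libraries and 89 to 131 in controls.

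Tiparp encodes a mono-ADP-ribosyltransferase, also called PARP7, that modifies the AHR. Tiparp (ENSMUSG00000034640, chromosome 3, 65435831 to 65462939, plus strand) had 56.0, 56.1 and 60.0 CPM in NAPQI libraries and 66.3, 69.8 and 71.2 CPM in controls. All 3 NAPQI libraries lay below all 3 controls, and the spread within each group was small, with coefficients of variation of 4.0% in NAPQI libraries and 3.65% in controls. The mean was 57.4 ± 2.29 CPM with NAPQI and 69.1 ± 2.52 CPM in controls (SD, n = 3 each), a log2 fold change of -0.27 ± 0.09 (SE). Over the 6 fits that left out 1 library it ranged from -0.30 to -0.24.

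Cyp1a1, the enzyme that hydroxylates polycyclic aromatic hydrocarbons and the usual readout of AHR activity, had the largest difference among the members. Cyp1a1 (ENSMUSG00000032315, chromosome 9, 57595211 to 57611107, plus strand) was counted 55, 51 and 46 times in NAPQI libraries and 16, 25 and 8 times in controls. Scaled to depth this was 3.41, 3.23 and 3.18 CPM with NAPQI and 0.935, 1.46 and 0.591 CPM in controls. The NAPQI libraries lay close together and all above the controls, which differed among themselves by more than 2-fold. The precision at these counts is limited: the exact Poisson interval (95%, counting error only) ran from 2.57 to 4.44 CPM for NAPQI replicate 1 and from 0.255 to 1.17 CPM for control replicate 3. Means were 3.27 ± 0.125 CPM with NAPQI and 0.994 ± 0.435 CPM in controls (SD, n = 3 each), a ratio of 3.29, and the fitted log2 fold change was 1.69 ± 0.38 (SE). In the authors' deposited table the fold change was 3.30, from mean normalised counts of 51.1 with NAPQI and 15.5 in controls. Its size leaned on single controls: the log2 fold change was 2.07 without control replicate 2 and 1.45 without control replicate 3, the library that stood apart. That library had both the lowest Cyp1a1 and the highest erythroid sum, and the part of blood cells in its Cyp1a1 level was not tested. Only 11.3% of tested genes had a mean CPM at or below that of Cyp1a1, and all these values rest on few reads.

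Cyp1b1, which also oxidises aromatic hydrocarbons and oestrogens and is typical of mesenchymal and steroid-forming tissue, had a value of the opposite sign to Cyp1a1. Cyp1b1 (ENSMUSG00000024087, chromosome 17, 80008966 to 80022490, minus strand) had 73.1, 57.3 and 58.4 CPM in NAPQI libraries and 69.9, 63.8 and 73.1 CPM in controls. NAPQI replicate 1 was at the top of the control range, and NAPQI replicates 2 and 3 lay below all controls. The log2 fold change was -0.13 ± 0.11 (SE), and over the 6 fits that left out 1 library it ranged from -0.24 to -0.06. Summed interstitial markers were 1793, 1411 and 1247 CPM in NAPQI replicates 1, 2 and 3 and 1875, 1714 and 1772 CPM in control replicates 1, 2 and 3, with 6 of 6 genes at a negative log2 fold change. NAPQI replicate 1 was the highest NAPQI library for both these markers and Cyp1b1, and the part of interstitial cells in the level of Cyp1b1 was not tested.

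**Figure D1:**
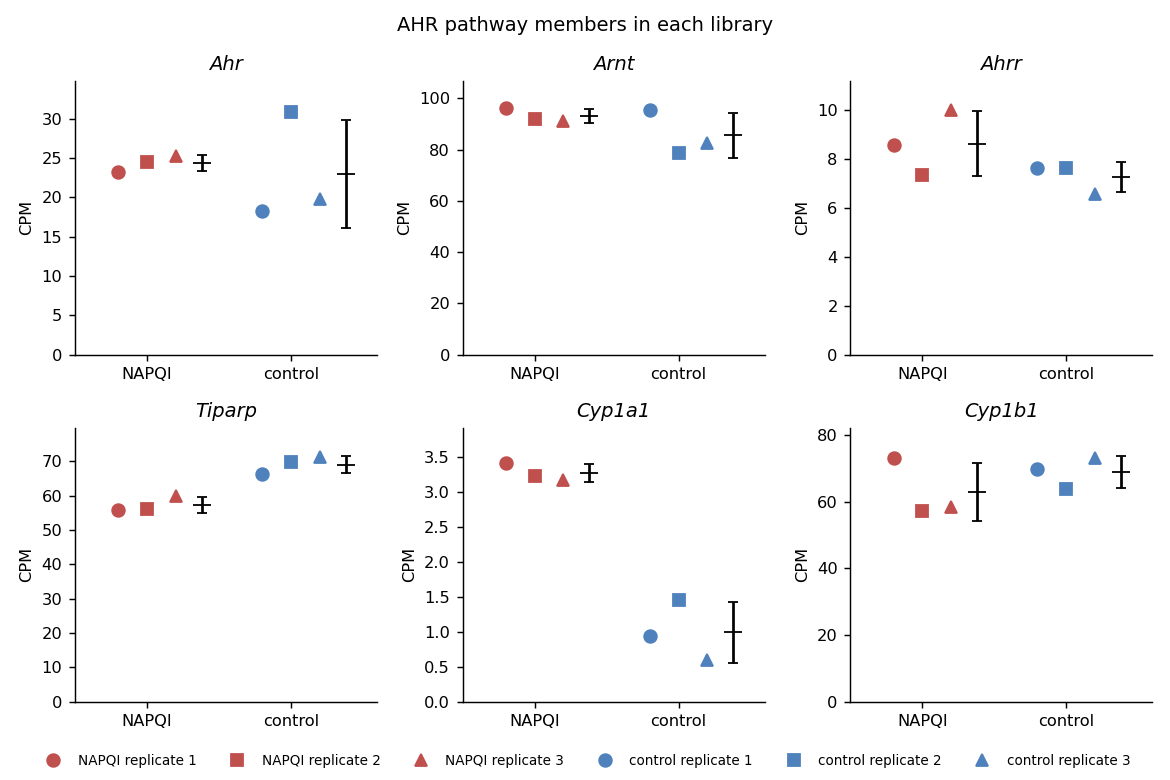
CPM of each member in each library, with NAPQI libraries on the left of each panel, controls on the right and mean ± SD (n = 3) beside each group; every vertical axis starts at 0. Cyp1a1 lay above all controls and Tiparp below all controls in the 3 NAPQI libraries, and the groups overlapped for the other 4 members.

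The groups of libraries thus did not overlap for 2 of the 6 members. All NAPQI libraries lay above all controls for 1 member, where this held for 7.26% of the 14736 tested genes, and below them for 1, where it held for 7.13%. By the quasi-likelihood test of edgeR, adjusted over all tested genes, 0 of the 6 members were called at 0.05, where 0.0814% of tested genes were, and 2 had an unadjusted p under 0.05, where 9.24% of tested genes did. DESeq2 called 1 member, Cyp1a1, where it called 0.559% of its genes, and limma-voom called 0, where it called 0.00679%. Since this comparison chose the set, nothing is read from these counts.

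**Figure D2:**
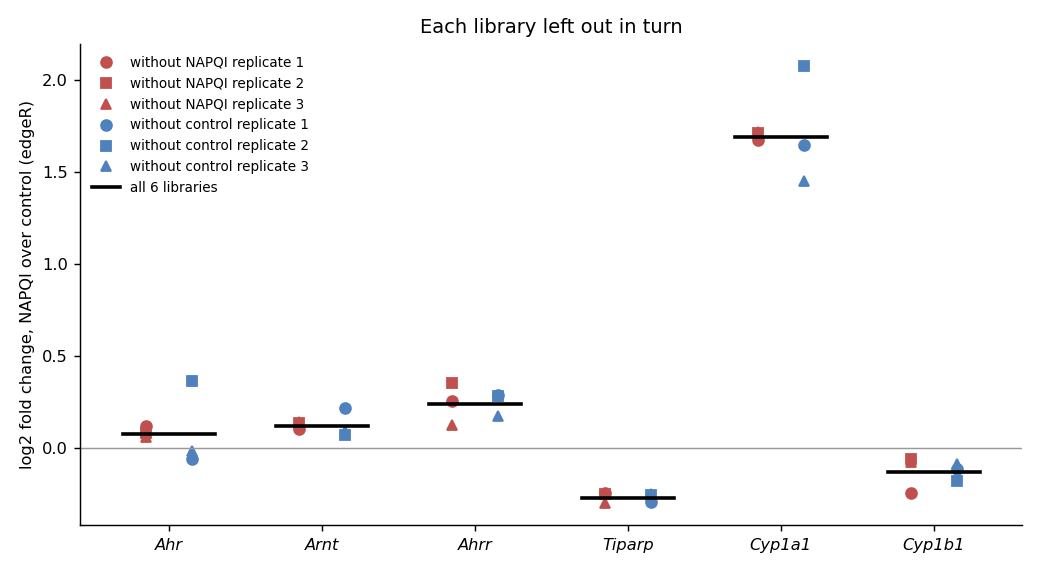
Log2 fold change of NAPQI over control (edgeR, vertical axis) for each member with all 6 libraries (black line) and with each library left out in turn (points, coloured by the group of the library left out). Cyp1a1 ranged from 1.45 to 2.07 and Tiparp from -0.30 to -0.24, and Ahr lay on both sides of 0.

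Levels were compared between genes per length, in the authors' FPKM (counts per kilobase of the deposited gene length and per 1e+06 counted reads). Averaged over the 6 libraries, Tiparp was highest at 14.5 FPKM, then Cyp1b1 at 11.3, Arnt at 11.2, Ahr at 3.84, Ahrr at 0.844 and Cyp1a1 at 0.769 FPKM. Cyp1b1 at 9.91 to 12.6 FPKM and Arnt at 9.79 to 12.1 FPKM covered nearly the same range over the libraries and did not differ beyond their spread; Cyp1b1 had the lower mean with NAPQI and the higher mean in controls. Tiparp at 12.9 to 15.9 FPKM lay above both, since its lowest library exceeded the highest of either. Ahr at 2.96 to 4.98 FPKM stood clear of its neighbours in this order. Ahrr at 0.679 to 1.075 FPKM and Cyp1a1 at 0.207 to 1.23 FPKM overlapped, and their order differed between the groups. With NAPQI, Cyp1a1 averaged 1.19 ± 0.0395 and Ahrr 0.924 ± 0.145 FPKM, and in controls Cyp1a1 averaged 0.354 ± 0.157 and Ahrr 0.764 ± 0.0739 FPKM (SD, n = 3 each).

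**Figure D3:**
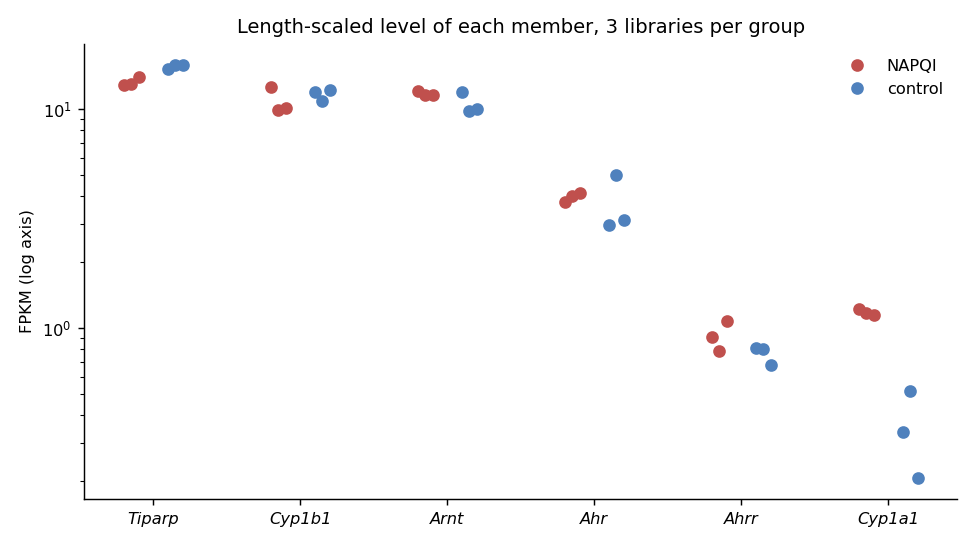
FPKM of each member (vertical log axis) in the 3 NAPQI and 3 control libraries, ordered by the mean over all libraries. Tiparp, Cyp1b1 and Arnt lay near 10 FPKM or above, Ahr between 2.96 and 4.98 FPKM, and the NAPQI points of Cyp1a1 lay at 1.16 to 1.23 FPKM, above its control points at 0.207 to 0.520 FPKM.

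Transcripts of the receptor's partner outnumbered those of the receptor. The ratio of Arnt to Ahr in FPKM was 3.19, 2.89 and 2.78 in NAPQI libraries and 4.04, 1.97 and 3.21 in controls, with the NAPQI libraries inside the control range. Tiparp exceeded Ahrr by a ratio of 14.2, 16.6 and 12.98 in NAPQI libraries and 18.8, 19.8 and 23.5 in controls. The ratio was thus lower in all NAPQI libraries than in any control. Tiparp alone also lay below all controls, so the ratio is not a result separate from it. Within the CYP1 family Cyp1b1 dominated. The ratio of Cyp1b1 to Cyp1a1 was 10.2, 8.48 and 8.78 with NAPQI and 35.7, 20.9 and 59.0 in controls. Cyp1a1 made up 8.89%, 10.6% and 10.2% of the summed FPKM of Cyp1a1, Cyp1a2 and Cyp1b1 in NAPQI libraries, and 2.71%, 4.53% and 1.64% in controls. The sum of the 3 genes was 13.8, 11.1 and 11.3 FPKM in NAPQI libraries and 12.4, 11.5 and 12.6 FPKM in controls, and it overlapped between the groups.

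**Figure D4:**
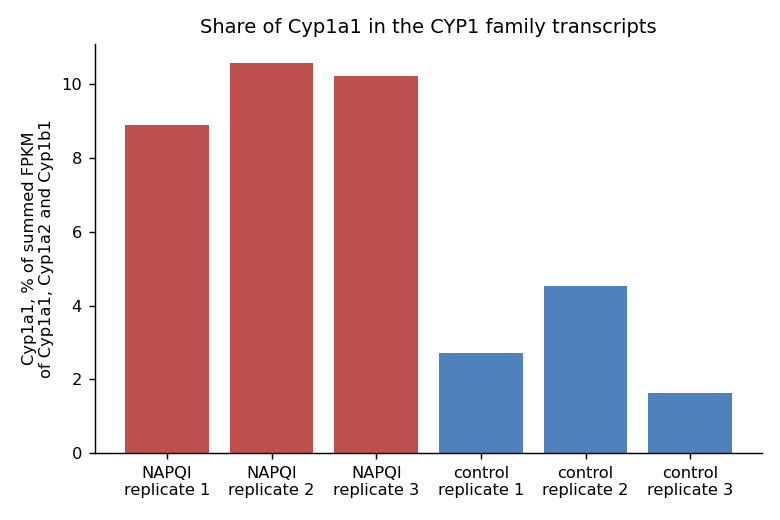
Cyp1a1 as a percentage of the summed FPKM of Cyp1a1, Cyp1a2 and Cyp1b1 (vertical axis, from 0) in each library. The 3 NAPQI libraries sit between 8.89% and 10.6% and the 3 controls between 1.64% and 4.53%.

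Other targets of the AHR were given from a list of 18, of which 10 had enough counts to be tested. None was called by edgeR over all genes, by DESeq2 or by limma-voom. These tests called 0.0814%, 0.559% and 0.00679% of all genes, so a list of this size would usually hold no call, and the same applies to the lists below. Of the 10, 0 were higher and 1 lower at an unadjusted p under 0.05, where 9.24% of all tested genes had one in either direction. A count of 1 does not stand out at this number of genes, here or in the lists below. There were 5 with a positive and 5 with a negative log2 fold change; the median was 0.0045, beside -0.0113 over all tested genes. Hes1, a transcriptional repressor and Notch target, had 89.8, 89.9 and 81.6 CPM in NAPQI libraries and 98.7, 112 and 132 CPM in controls (log2 fold change -0.39 ± 0.11, edgeR adjusted p = 0.316). Its NAPQI libraries lay below all controls, as held for 7.13% of all tested genes. Nqo1, the quinone reductase shared by the AHR and NRF2 responses, had 6.64, 4.93 and 8.01 CPM in NAPQI libraries and 3.86, 5.88 and 3.55 CPM in controls. The groups of Nqo1 overlapped, and its log2 fold change was 0.55 ± 0.28 (edgeR adjusted p = 0.553), with a 95% interval of -0.05 to 1.15 that holds a doubling.

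The hormone gene Fgf21 had the largest positive value of the list, 0.75 ± 0.49, with means of only 1.92 CPM with NAPQI and 1.14 CPM in controls (edgeR adjusted p = 0.646). Bax, a pro-apoptotic gene that the AHR activates in mouse oocytes after exposure to aromatic hydrocarbons, averaged 31.4 ± 3.87 CPM with NAPQI and 34.6 ± 5.48 CPM in controls (SD, n = 3 each). The 95% interval of its log2 fold change was -0.45 to 0.17. Nfe2l2, which encodes the oxidative stress regulator NRF2, was at 0.12 ± 0.09 and the amino acid transporter gene Slc7a5 at 0.18 ± 0.11 on the log2 scale. The P450 gene Cyp2s1 was at 0.02 ± 0.17, the cell cycle inhibitor gene Cdkn1b at -0.02 ± 0.10, the xanthine oxidoreductase gene Xdh at -0.01 ± 0.35 and the efflux transporter gene Abcg2 at -0.19 ± 0.14, and edgeR adjusted p for these 7 ranged from 0.636 to 0.995.

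Most of the remaining classic AHR targets were close to absent. Cyp1a2, the CYP1 gene of liver, was counted 1, 0 and 1 times in NAPQI libraries and 3, 3 and 6 times in controls. Aldh3a1, an aldehyde dehydrogenase gene, was counted 0 to 2 times in NAPQI libraries and 0 to 5 times in controls. The glutathione transferase genes Gsta1 and Gsta2 had 0 and 1 counts in all, and the serpin gene Serpinb2 had 2. The glucuronosyltransferase gene Ugt1a6a was counted 8, 16 and 3 times in NAPQI libraries and 6, 1 and 2 times in controls, and Ugt1a6b 0, 5 and 6 times and 8, 2 and 0 times. These share exons with other Ugt1a genes, so their counts are uncertain. The growth factor gene Ereg was counted 2, 4 and 0 times in NAPQI libraries and 4, 14 and 27 times in controls. At these counts none of these 8 genes was tested.

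In the complex that holds the receptor and its coregulators, 14 of 14 genes were tested and 0 were called by edgeR, DESeq2 or limma-voom. Of the 14, 1 was higher and 0 were lower at an unadjusted p under 0.05, beside 9.24% of all tested genes. The median log2 fold change was 0.01. The chaperone genes Hsp90ab1 and Hsp90aa1 were by far the most abundant, at 2787 ± 137 and 1333 ± 120 CPM with NAPQI and 2941 ± 283 and 1302 ± 128 CPM in controls (SD, n = 3 each); both have processed pseudogenes, so their counts are uncertain. Nrip1, a nuclear receptor corepressor gene, was at 0.24 ± 0.10 on the log2 scale (edgeR adjusted p = 0.499). All 3 NAPQI libraries lay above all controls for Nrip1, at 113, 116 and 104 CPM against 103, 96.3 and 81.9 CPM. This held for 3 of the 14 genes, Ep300 and Med1 included, and for 7.26% of all tested genes. The lists below also hold genes whose groups did not overlap, with Hif1a, Arntl2, Cyb5r3 and Parp11 among those named.

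Enzymes of tryptophan metabolism, some of which form AHR ligands, were only partly expressed. Of 14 listed, 8 were tested; Ido1 had 0 counts in any library and Ido2 at most 1. None of the 8 was called by edgeR, DESeq2 or limma-voom, and 0 had an unadjusted p under 0.05, beside 9.24% of all tested genes. The median log2 fold change was 0.04. The aminotransferase genes Got2 and Kyat3 led the list, with 95.5 ± 8.08 and 31.4 ± 1.74 CPM with NAPQI and 96.1 ± 6.26 and 30.1 ± 1.54 CPM in controls (SD, n = 3 each). Among members with at least 1 CPM the largest values were 0.12 ± 0.24 for the formamidase gene Afmid and -0.12 ± 0.14 for the aminotransferase gene Kyat1 (edgeR adjusted p = 0.898 and 0.814).

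Another list held 15 other bHLH-PAS and related PAS genes, which include alternative partners of ARNT and the circadian regulators. Of these, 11 were tested, 3 of them at a positive and 8 at a negative log2 fold change (median -0.10). The proteins of Per1, Per2 and Per3 have PAS domains but no DNA-binding bHLH domain, and these genes were among the 8. None of the 11 was called by edgeR, DESeq2 or limma-voom. At an unadjusted p under 0.05, 0 were higher and 1 lower, beside 9.24% of all tested genes. Per1, a clock gene that is also quickly induced by stimuli, had 29.2, 44.5 and 27.6 CPM in NAPQI libraries and 49.2, 33.7 and 59.6 CPM in controls (log2 fold change -0.49 ± 0.21, edgeR adjusted p = 0.509). Its groups overlapped through NAPQI replicate 2 and control replicate 2. Arntl2, a circadian relative of ARNT, was at -0.39 ± 0.31 on means of 2.38 CPM with NAPQI and 3.12 CPM in controls (edgeR adjusted p = 0.699). Hif1a, which competes with the AHR for ARNT, averaged 245 ± 3.57 CPM with NAPQI and 263 ± 10.6 CPM in controls (SD, n = 3 each), and the clock gene Per3 was at -0.03 ± 0.09 on the log2 scale.

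A further list held 14 genes for the electron supply of CYP1 proteins and for haem metabolism. It includes Hmox1 and Hmox2, whose enzymes break haem down. All 14 were tested and 0 were called by edgeR, DESeq2 or limma-voom. None had an unadjusted p under 0.05, where 9.24% of all tested genes did, and the median log2 fold change was -0.04. Of haem synthesis, Cpox was at 0.36 ± 0.17, Ppox at -0.26 ± 0.13 and Alad at 0.07 ± 0.09 on the log2 scale, and the reductase gene Cyb5r3 was at -0.14 ± 0.08 (edgeR adjusted p = 0.549, 0.568, 0.823 and 0.625). Among 15 other genes of the PARP family to which Tiparp belongs, 15 were tested and 0 were called by edgeR, DESeq2 or limma-voom. None had an unadjusted p under 0.05, beside 9.24% of all tested genes, and the median was 0.06. Parp14 was at -0.29 ± 0.25 and Parp11 at 0.19 ± 0.11 on the log2 scale, and the abundant Tnks2 and Parp1 were at 0.08 ± 0.09 and 0.06 ± 0.09 (edgeR adjusted p = 0.724, 0.594, 0.797 and 0.870).

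**Figure D5:**
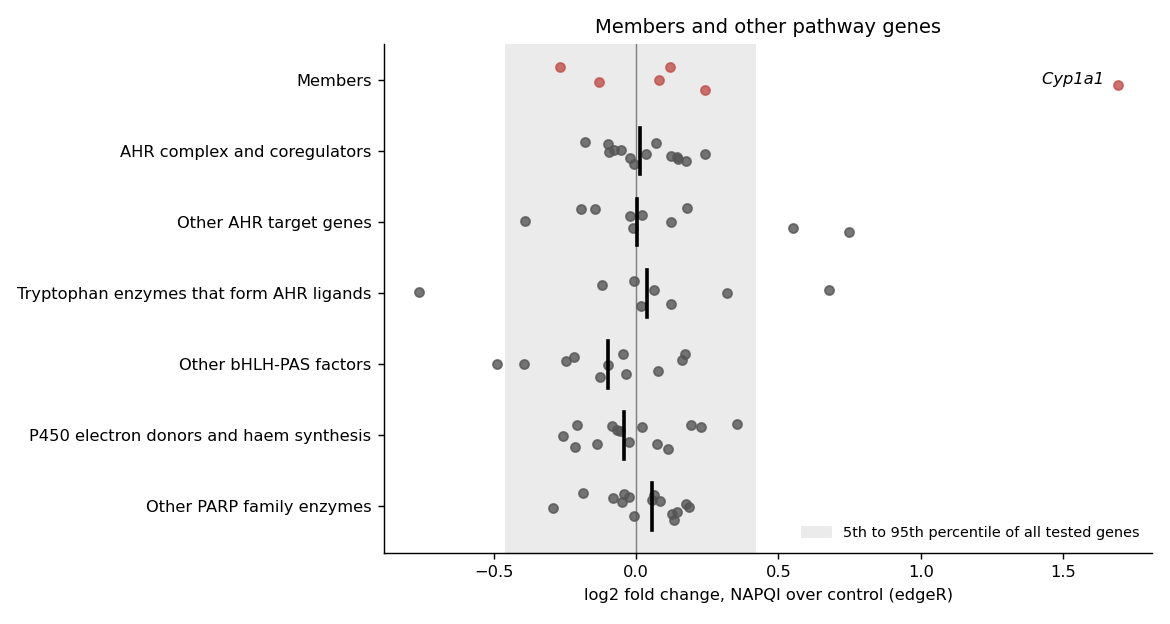
Log2 fold change of NAPQI over control (edgeR, horizontal axis) for the 6 members (red) and for the tested genes of 6 pathway lists (grey, with the median of each list as a black line); the vertical position within a row has no meaning. The band from -0.46 to 0.42 holds the 5th to 95th percentile of all tested genes, at any level of expression. Cyp1a1 at 1.69 lay outside it and the other 5 members inside it. The set was chosen because Cyp1a1 was higher, so its place outside the band is a description and no evidence.

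The genes whose profile over the 6 libraries was nearest to that of Cyp1a1 were BC048403, Mlec and Ccnjl, among 14082 genes with a mean of at least 1 CPM. The root mean square distance between log2 CPM values standardised over the libraries was 0.057, 0.127 and 0.128. With so many genes and 6 libraries, near matches are a description only. BC048403 had 16.0, 16.1 and 15.8 CPM in NAPQI libraries and 12.4, 13.6 and 11.2 CPM in controls. Mlec, which encodes a lectin of the endoplasmic reticulum, had 386, 368 and 370 CPM in NAPQI libraries and 310, 335 and 297 CPM in controls. Ccnjl, a cyclin-like gene, had 46.4, 44.0 and 46.6 CPM in NAPQI libraries and 26.2, 30.3 and 23.8 CPM in controls. Picked by this profile, all 3 shared with Cyp1a1 an even level among NAPQI libraries and the order of controls, with replicate 2 highest and replicate 3 lowest. Their log2 fold changes were 0.36 ± 0.15, 0.25 ± 0.09 and 0.77 ± 0.12 (SE, edgeR adjusted p = 0.502, 0.419 and 0.0394). The adjusted p of Ccnjl was 2.58e-05 by DESeq2, 0.0562 by limma-voom and 0.123 by edgeR with the replicate block. By edgeR with 1 library left out it ranged from 0.0143 to 0.275, so its call depended on the setting. The profile that picked these genes holds the group difference, so their values are a description.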

How the data were processed

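The authors deposited raw read counts per gene, per the file headers, for 6 libraries, which were grouped by their titles. FPKM values in the same deposited table equalled the count per kilobase and per 1e+06 counted reads for 100% of values above 0, within a relative tolerance of 0.001. The authors' second deposited table gave mean normalised counts (a signal per group) and their ratio as a fold change. The submitters' processing notes name FastQC 0.11.8, HISAT2 2.0.5, HTSeq 0.9.1 and GRCm39; the sources used here do not say whether counting used the strand.

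Groups were compared with edgeR 4.0.16 (R 4.3.3): filterByExpr (minimum count 10), TMM scaling, two-sided quasi-likelihood F-test, Benjamini-Hochberg adjustment over 14736 tested genes, threshold 0.05. CPM use TMM-scaled library sizes, with a prior count of 2 for log2 CPM. With 3 libraries in each group, the smallest two-sided permutation p is 0.1. Alternatives were other scalings, other filters, DESeq2 1.42.0, limma-voom (limma 3.58.1), the replicate number as a block, and each library left out. The gene test was tested on simulated data. Poisson intervals cover counting error only, since reads without molecular identifiers are not independent molecules. Figures used Python 3.11.15 and matplotlib 3.10.9.

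The members and lists were chosen with earlier results of these data known. Named genes were the members, all tested genes of the list of other AHR targets, the 2 most abundant genes and the 2 of at least 1 CPM with the largest absolute change of each other pathway list, and the 3 genes nearest to Cyp1a1. Of these 39 genes, the spans of 7 (Slc7a5, Bax, Afmid, Hif1a, Per3, Cpox and Ppox) overlap another gene, and their counts may hold its reads. The values of 1 named gene are not reported here.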

Additional observations from a re-analysis of the deposited data

How the results depend on the processing

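The number of genes called over all tested genes was 12. It was 48 with no low-count filter, 80 by DESeq2, 1 by limma-voom and 1 with the replicate block. With each library left out it was 1 to 58: 1 on omission of NAPQI replicate 1, NAPQI replicate 3 or control replicate 3, 25 on omission of NAPQI replicate 2, and 58 on omission of control replicate 2. The cause was not tested. Same-numbered libraries gave no sign of pairing (correlations of deviations from the group means of 0.061, -0.178 and -0.051), and they share only a number. The log2 fold change of Cyp1a1 was 1.69 to 1.75 under the settings that keep all libraries, the replicate block among them. The median over all tested genes moved by less than 0.1 under every scaling.

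With libraries left out, the median log2 fold change was 0.0021 to 0.11 for other AHR targets. It was -0.10 to -0.0196 for the other bHLH-PAS and related PAS genes. Log2 fold changes near 0 changed sign: with library size alone Cdkn1b was at 0.0057, Got2 at 0.0204 and Xdh at 0.0197, with upper quartile scaling Got2 was at 0.0047 and Xdh at 0.0029, and with no low-count filter Got2 was at 0.0017 and Xdh at 4e-04. With libraries left out they were -0.0704 to 0.0782 for Cdkn1b, -0.12 to 0.15 for Cyp2s1, -0.0528 to 0.0696 for Got2, -0.0279 to 0.12 for Hsp90aa1, -0.10 to 0.0389 for Per3 and -0.39 to 0.21 for Xdh. None of these genes was called in any of these fits. The depth limits Cyp1a1, at 8 counts in its lowest library, and the targets that were not tested.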

Other observations

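P450 genes that in liver oxidise acetaminophen to NAPQI, picked after the data were seen, were hardly expressed in these ovaries. Cyp2e1 was counted 35, 22 and 9 times in NAPQI libraries and 23, 23 and 13 times in controls, and the groups overlapped. Cyp1a2 had 2 counts over the 3 NAPQI libraries and 12 over the 3 controls, and Cyp3a13 had 7 and 14. Cyp3a11 and Cyp2a5 had 0 counts in every library.

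The surroundings of Cyp1a1 were also listed after the data were seen. Within 100 kb of its span on chromosome 9 lie 9 other genes of the table, of which 6 were tested. Of these, 0 were called by edgeR, DESeq2 or limma-voom, which called 0.0814%, 0.559% and 0.00679% of all genes, and 1 had an unadjusted edgeR p under 0.05, as did 9.24% of all tested genes; neither count stands out at this number of genes. Cyp1a2 lies on the opposite strand, and its start site is 4225 bases before the span of Cyp1a1. Edc3, which encodes an enhancer of mRNA decapping and begins 4716 bases after it, averaged 60.9 CPM with NAPQI and 52.5 CPM in controls (log2 fold change 0.21 ± 0.10, edgeR adjusted p = 0.526). Csk, a kinase gene on the other side, averaged 79.0 CPM with NAPQI and 88.8 CPM in controls (log2 fold change -0.17 ± 0.08, edgeR adjusted p = 0.552). The remaining 4 tested genes, Scamp2, Ulk3, Clk3 and Arid3b, had log2 fold changes of -0.04 to 0.21. The spans of Edc3 and Clk3 overlap on opposite strands, so the counts of each may hold reads of the other.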
